A study of Rattus norvegicus with 6 samples.

Results

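The genes described here make prostaglandins, thromboxane and leukotrienes or break prostaglandins down. They are 10 named genes, Pla2g2a, Pla2g4a, Ptgs1, Ptgs2, Ptgis, Ptges, Alox5, Alox5ap, Tbxas1 and Hpgd, chosen by name for their place in the pathway. All 10 were found in the deposited table, each on 1 row, among 17030 gene symbols on 17557 rows, and all 10 were among the 10749 rows tested. Pla2g2a and Ptgis also stand in a list of mRNAs that the study drew up from RNA-seq of such tumors, so they were not picked independently of expression data.

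These lipid mediators start from arachidonic acid, which phospholipases A2 release from membranes. Cyclooxygenases turn it into prostaglandin H2, from which separate synthases make prostaglandin E2, prostacyclin or thromboxane, while 5-lipoxygenase and its activating protein open the route to the leukotrienes. In tumors, prostaglandin E2 is known for its actions on immune cells and vessels, and leukotriene B4 is known as an attractant of neutrophils.

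Messenger RNA was sequenced from tissue labelled as tumors of PAIII, a transplantable prostate cancer line of the rat, grown under the skin of 2-month-old Lobund-Wistar rats, with 1 library per rat. Rats A1, A6 and A12 received digitoxin, a cardiac glycoside, at 0.03 mg/kg each day by intraperitoneal injection, starting on day 10, and rats B5, B9 and B14 received vehicle (n = 3 in each group). Tumors were taken after about a month of dosing, and each RNA came from micropunches of viable tumor pooled within a rat. The treated rats were picked for low and the control rats for high serum interleukin-6 and CINC-1, so treatment and serum level cannot be told apart. Values are FPKM, a read level corrected for the length of a transcript and for the total of its library. No read counts were given, so the depth behind a value is unknown, and summed FPKM lay between 651322 and 1025230.

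Libraries A12 and B14, numbered 3 in their groups, stood apart from the other 4. They had the closest pair of profiles (r = 0.985 across genes, which are not independent replicates), and the lowest r was 0.618, between A6 and B14. The summed level of 12 markers of lung epithelium was 21.3 FPKM in A12 and 28.6 FPKM in B14, with 4 of them listed at 0 in A12 and 5 in B14, but 48125 to 212980 FPKM in the other 4 tumors. Such levels go against a label of subcutaneous tumor alone for these 4 libraries, and whether lung tissue was among the samples was not tested. The 10 cell division markers had their lowest level in A6, gene by gene, with a sum of 74.3 FPKM there against 357 to 700 FPKM elsewhere. Of the markers of prostate epithelium, Krt8, Krt18, Epcam and Cdh1 were present, and Pbsn was listed at 0 in every tumor. In tissue libraries, fewer cells of a type and less RNA per cell cannot be told apart. No gene was targeted that could check the group labels. Earlier work on this series left those of A1 and B9 in doubt, which was not tested here. Every direction below holds for the libraries as labelled. Without A1, 10 of the 10 members had a lower mean with digitoxin, and without B9, 6 of 10. The directions of the 10 members, and the separation of the groups of Pla2g4a and Ptgs1 described below, rest on these labels.

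Promoter sequences of 8 of the 10 members were matched in the RefSeq table of the rat build GRCr8; Ptgis and Alox5ap had no entry. Those of Pla2g4a, Ptgs1 and Ptgs2 are shown because these 3 had the most alike profiles of all pairs of members over the 6 tumors, and that of Ptges because it had the lowest fitted log2 fold change of the 10. Each runs 5′ to 3′ from 250 bases before to 50 bases after the annotated start, with motif matches in capitals. They lie at chr13:64572303-64572602 (minus strand, Pla2g4a), chr3:39981169-39981468 (plus, Ptgs1), chr13:64713813-64714112 (plus, Ptgs2) and chr3:34586938-34587237 (minus, Ptges).
Pla2g4a: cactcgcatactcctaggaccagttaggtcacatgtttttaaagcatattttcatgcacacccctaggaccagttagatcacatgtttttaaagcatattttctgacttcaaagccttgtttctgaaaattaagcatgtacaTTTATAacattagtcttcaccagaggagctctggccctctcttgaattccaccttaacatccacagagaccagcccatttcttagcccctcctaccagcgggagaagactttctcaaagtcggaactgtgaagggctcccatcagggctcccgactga
Ptgs1: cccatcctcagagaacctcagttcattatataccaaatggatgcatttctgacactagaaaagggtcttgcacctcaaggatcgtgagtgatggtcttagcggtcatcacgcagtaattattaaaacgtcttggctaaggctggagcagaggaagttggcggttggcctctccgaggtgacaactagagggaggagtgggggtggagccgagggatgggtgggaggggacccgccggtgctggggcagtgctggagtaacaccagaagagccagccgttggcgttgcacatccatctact
Ptgs2: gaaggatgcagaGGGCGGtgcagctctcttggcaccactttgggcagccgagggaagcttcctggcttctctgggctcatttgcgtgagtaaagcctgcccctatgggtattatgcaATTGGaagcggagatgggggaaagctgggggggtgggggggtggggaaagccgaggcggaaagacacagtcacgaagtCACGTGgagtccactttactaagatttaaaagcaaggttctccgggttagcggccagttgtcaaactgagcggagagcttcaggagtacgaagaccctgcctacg
Ptges: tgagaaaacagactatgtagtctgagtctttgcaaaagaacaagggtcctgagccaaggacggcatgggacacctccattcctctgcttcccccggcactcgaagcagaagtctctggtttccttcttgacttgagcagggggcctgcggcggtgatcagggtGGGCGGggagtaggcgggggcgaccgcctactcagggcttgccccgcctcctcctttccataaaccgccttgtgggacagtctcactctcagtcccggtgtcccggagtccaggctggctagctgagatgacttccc

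Motifs were searched on both strands as exact letters, except for the consensus named κB. Of 33469 rat promoters of this length, 14.2% held TATAAA, the letters of the usual core promoter element of that name. The motif GGGCGG, bound by Sp1, was held by 33.1% and the E-box CACGTG by 6.42%. For CCAAT the share was 37.5%, for TGACG, part of the cyclic AMP response element, 21.2%, and for the κB consensus 7.51%. Pla2g4a held TATAAA on the minus strand, beginning at position -108 from the start. In Ptgs1 none of the 6 was found. Ptgs2 held GGGCGG at -238, CCAAT on the minus strand at -133 and CACGTG at -55. Ptges held GGGCGG at -87. Of those not printed, Alox5 held the κB consensus at -143, where the same letters read as a match on either strand, and GGGCGG at -61, Tbxas1 TATAAA on the minus strand at -50, Hpgd TGACG at -136, GGGCGG on the minus strand at -99 and CACGTG at 23, and Pla2g2a CCAAT on the minus strand at -20. A match describes letters only, and none of these data measure binding.

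The comparison of digitoxin-treated with vehicle-treated tumors asked whether the drug changed gene expression in the tumor. None of the 10 members passed limma's test on log2(FPKM + 1) at an adjusted p under 0.05, as did 0 of the 10749 rows tested (0.0%), and none had an unadjusted p under 0.05, where 36 rows did (0.335%). For 2 members, Pla2g4a and Ptgs1, the groups did not overlap, with every treated tumor below every control tumor, as in 3.26% of all rows. No member was higher without overlap, against 0.902% of rows. Of the 10 members, 6 had a lower and 4 a higher mean on the log2 scale, with a median log2 fold change of -0.16, the same to 2 decimals as the -0.16 over all rows, of which 64.9% were lower. With median-of-ratios scaling, which raised the median of all rows by 0.18 to 0.02 (48.6% lower), 5 members were lower and 5 higher.

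**Figure D1:**
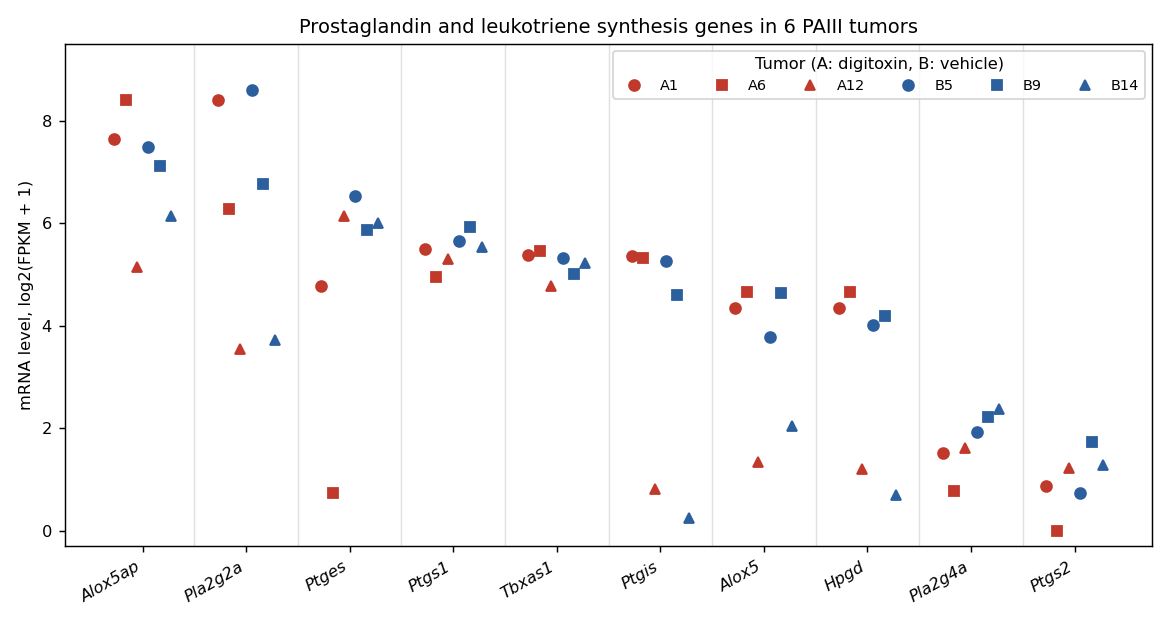
Level of each of the 10 members in every tumor, as log2(FPKM + 1), with 1 point per tumor in red for digitoxin (A1, A6, A12) and blue for vehicle (B5, B9, B14); circles, squares and triangles mark replicates 1, 2 and 3. Pla2g4a and Ptgs1 are lower in all 3 treated than in all 3 control tumors, and A12 and B14 lie lowest for Pla2g2a, Ptgis, Alox5, Alox5ap and Hpgd.

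The log2 fold changes below are limma's, digitoxin relative to vehicle, on log2(FPKM + 1), a scale on which the added 1 shrinks the changes of low genes. Without both tumors numbered 3, which leaves 2 tumors per group, 0 members and 2 rows (0.0186%) passed the adjusted threshold. Ptges was then the 1 member with an unadjusted p under 0.05, against 11.0% of rows. Groups then did not overlap for 3 members that were lower (Pla2g4a, Ptgs1 and Ptges), against 40.0% of rows, and for 4 that were higher (Ptgis, Alox5ap, Tbxas1 and Hpgd), against 17.2%. With 2 tumors in each group, non-overlap was thus common among all rows. The lung marker sums of these tumors were 105236 FPKM (A1) and 212980 FPKM (A6) with digitoxin. With vehicle they were 48125 FPKM (B5) and 58775 FPKM (B9). Treatment and lung marker level therefore cannot be told apart in this subset.

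The first step is taken by the phospholipases. Pla2g4a, the cytosolic phospholipase A2 that releases arachidonic acid on a calcium signal, lies at chr13:72027800-72172613 in the coordinates of the deposited table, whose build is not named. It stood at 1.89, 0.720 and 2.07 FPKM in A1, A6 and A12 and at 2.81, 3.65 and 4.17 FPKM in B5, B9 and B14. All 3 treated tumors were below all 3 controls, with A6 the lowest, as it was for the cell division markers, whose part in the difference was not tested. The means were 1.56 ± 0.734 and 3.54 ± 0.690 FPKM (SD, n = 3), so that the treated mean was 44.0% of the control mean. The log2 fold change was -0.86 (SE 0.37, 95% interval -1.76 to 0.04, adjusted p = 0.926), and it was -0.74 with median-of-ratios scaling, where the groups still did not overlap. Leaving out single tumors moved it between -1.02 (without A12) and -0.60 (without A6).

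Pla2g2a (chr5:161024072-161026650), a secreted phospholipase A2 found in inflammatory fluids, spread over a far wider range. Its levels were 340.3, 76.4 and 10.7 FPKM in A1, A6 and A12, beside 386, 109 and 12.2 FPKM in B5, B9 and B14. Tumors numbered 3 were lowest in both groups, and the groups overlapped. The treated tumor was lower than the same-numbered control for 3 of 3 replicate numbers, though no label pairs these rats. With the number as a block the adjusted p was 0.652. Its log2 fold change of -0.29 (SE 1.61, adjusted p = 0.975) became 0.98 without A12 and -1.61 without B14.

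Both cyclooxygenases had a lower mean with digitoxin. Ptgs1 (chr3:20869941-20891509), the enzyme present in most resting tissues, was measured at 44.3, 29.9 and 38.4 FPKM with digitoxin (A1, A6, A12) and at 49.5, 59.7 and 45.8 FPKM with vehicle (B5, B9, B14). The groups did not overlap, although A1 and B14 differed little, and with median-of-ratios scaling they overlapped. The means were 37.5 ± 7.26 and 51.6 ± 7.23 FPKM (SD, n = 3), a treated mean of 72.7% of the control mean. The log2 fold change was -0.46 (SE 0.24, 95% interval -1.04 to 0.12, adjusted p = 0.926). It was -0.27 with median-of-ratios scaling and ran from -0.59 (without A1) to -0.31 (without A6).

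Ptgs2 (chr13:72316369-72322060), the cyclooxygenase induced by inflammatory signals, was low in every tumor. It stood at 0.825 FPKM in A1 and 1.33 FPKM in A12 and was listed at 0 in A6. Vehicle-treated tumors B5, B9 and B14 had 0.665, 2.32 and 1.46 FPKM. The groups overlapped, and the log2 fold change was -0.56 (SE 0.47, 95% interval -1.70 to 0.58, adjusted p = 0.926). It was -0.21 without A6 and -1.48 with 0.1 in place of 1 added to the FPKM. The precision of such low FPKM is not known.

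**Figure D2:**
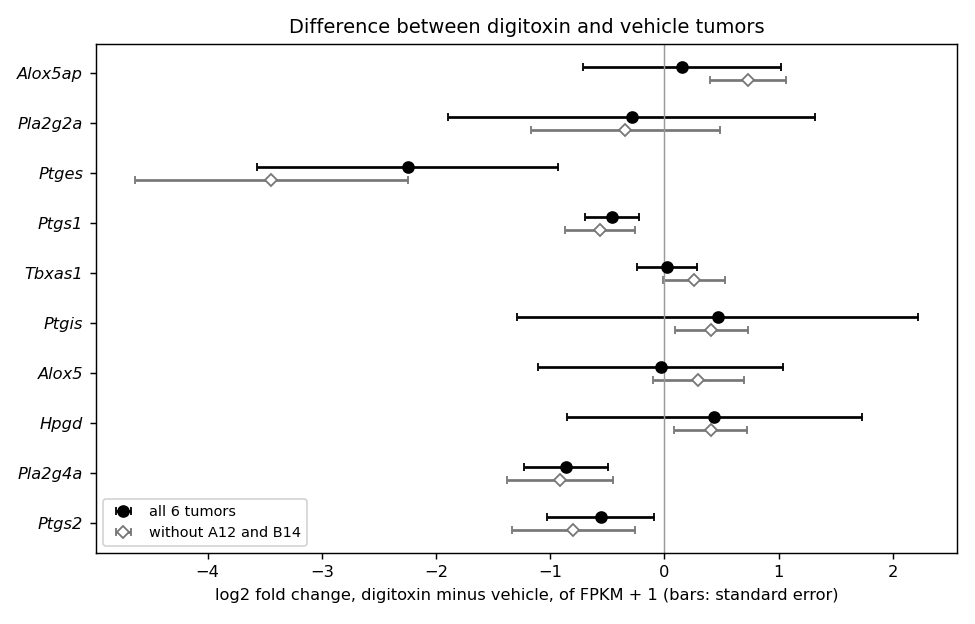
Log2 fold change of the 10 members, digitoxin relative to vehicle, from limma on log2(FPKM + 1), with bars of 1 standard error either way; filled points use all 6 tumors and open diamonds leave out A12 and B14. With all 6 tumors the standard errors run from 0.24 (Ptgs1) to 1.76 (Ptgis).

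Of the terminal synthases, Ptges had the widest difference between the group means on the log2 scale, with low levels in A6 and A1. Ptges (chr3:15086725-15098070) is the inducible synthase of prostaglandin E2. Its levels with digitoxin were 26.6 in A1, 0.667 in A6 and 69.3 FPKM in A12, whereas vehicle-treated tumors had 91.6 in B5, 57.7 in B9 and 63.0 FPKM in B14. A1 and A6 were below all controls, and A12 lay inside their range. The means were 32.2 ± 34.6 and 70.8 ± 18.2 FPKM (SD, n = 3), or 45.5% of the control mean. The log2 fold change was -2.25 (SE 1.32, 95% interval -5.45 to 0.95, adjusted p = 0.926), and from the replicate block, which compares same-numbered tumors, the unadjusted p was 0.0416 and the adjusted p 0.638. It was -0.67 without A6 and -3.37 without A12, so its size rests on those libraries. A6 also had the lowest sum of the cell division markers, given above. Its sum of the prostate epithelium markers was lowest too (843 FPKM against 1676 to 2963 FPKM elsewhere). Krt8 was the largest part of each of these sums, at 398 FPKM in A6, and 2 of the 10 genes were lowest in A6. The lung marker sum was highest in A6 (212980 FPKM) and A1 (105236 FPKM). It was 48125 FPKM in B5, 58775 FPKM in B9, 21.3 FPKM in A12 and 28.6 FPKM in B14. The part of these markers in the difference was not tested. Without both tumors numbered 3 the change was -3.44 (SE 1.19, adjusted p = 0.392).

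Ptgis (chr3:170109316-170143882), the synthase of prostacyclin, measured 40.0, 39.2 and 0.768 FPKM in A1, A6 and A12. With vehicle it measured 37.3, 23.3 and 0.188 FPKM in B5, B9 and B14. The highest level was 212 times the lowest, and both numbered-3 tumors were far below the other 4. The endothelial markers were also lowest in those tumors, with sums of 115 FPKM in A12 and 145 FPKM in B14 against 408 to 1754 FPKM elsewhere, and 8 of the 10 were below the other 4 tumors in both. Prostacyclin synthase is known from endothelium and smooth muscle, and the smooth muscle markers had sums of 389 FPKM in A12 and 794 FPKM in B14, above the 67.6 to 218 FPKM elsewhere. Of the 8 smooth muscle markers, 4 were above the other 4 tumors in both, while Des was lowest in A12 (14.3 FPKM). The part of these cell types in the level of Ptgis was not tested. The log2 fold change was 0.47 (SE 1.76, adjusted p = 0.965), running from -1.10 without B14 to 1.97 without A12. The treated tumor was higher than the same-numbered control for 3 of 3 numbers, which no label pairs (adjusted p = 0.640 with the block).

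Tbxas1 (chr4:66481263-66651601), the thromboxane synthase of platelets and macrophages, was the most even of the terminal synthases among the members. It reached 40.8, 43.0 and 26.4 FPKM in A1, A6 and A12 and 39.0, 31.2 and 36.3 FPKM in B5, B9 and B14. The groups overlapped, and the log2 fold change was 0.02 (SE 0.26, 95% interval -0.62 to 0.66, adjusted p = 0.991). The 10 macrophage markers had sums of 576 to 898 FPKM with digitoxin and 630 to 1391 FPKM with vehicle, with 4 of the 10 below and 3 above the other 4 tumors in both A12 and B14. The 6 of 8 platelet markers found had 284 to 1720 and 955 to 1565 FPKM, sums made up largely of Ppbp, which was listed at 0 in A6, where Pf4 was highest (255 FPKM).

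Hpgd, the dehydrogenase that inactivates prostaglandins, lies at chr16:37259043-37296863. Its FPKM were 19.5, 24.4 and 1.31 in the treated tumors A1, A6 and A12 and 15.3, 17.2 and 0.631 in the control tumors B5, B9 and B14. Again A12 and B14 were low and the groups overlapped. The lung epithelial markers differed in the same tumors, and their part in the level of Hpgd was not tested. Its log2 fold change was 0.44 (SE 1.29, adjusted p = 0.954), from -0.70 without B14 to 1.54 without A12. As for Ptgis, the treated tumor was higher than the same-numbered control for 3 of 3 numbers (adjusted p = 0.644 with the block).

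The leukotriene branch was carried by Alox5 and Alox5ap. Alox5 (chr4:214346149-214393316), the 5-lipoxygenase of neutrophils, mast cells and macrophages, had 19.4, 24.3 and 1.54 FPKM in A1, A6 and A12. Control tumors B5, B9 and B14 had 12.7, 24.0 and 3.11 FPKM. The tumors numbered 3 were again lowest in either group, and the log2 fold change of -0.03 (SE 1.07, adjusted p = 0.997) was 0.16 with median-of-ratios scaling, 1.02 without A12 and -0.76 without B14.

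Alox5ap (chr12:8950726-8974708), the membrane protein that presents arachidonic acid to 5-lipoxygenase, had the highest mean of the 10 members. Treated tumors A1, A6 and A12 gave 200, 341 and 34.6 FPKM, and control tumors B5, B9 and B14 gave 179, 138 and 69.9 FPKM. A6 was highest, A12 lowest, and the groups overlapped. On the log2 scale the change was 0.16 (SE 0.87, adjusted p = 0.975), and 1.12 without A12 but -0.52 without A6. Without both tumors numbered 3 it was 0.73 (SE 0.33, adjusted p = 0.392), with A1 and A6 above B5 and B9. The 11 neutrophil markers had sums of 24719, 63107 and 1358 FPKM in A1, A6 and A12 and 33156, 11396 and 3393 FPKM in B5, B9 and B14, sums made up almost wholly of S100a8 and S100a9. The neutrophil receptor gene Cxcr2 had another order, lowest in A6 (7.95 FPKM) and highest in B5 (36.9 FPKM), and Csf3r was highest in B9 (29.2 FPKM). The 10 mast cell markers had sums of 44.2 to 74.4 FPKM with digitoxin and 53.3 to 256 FPKM with vehicle. In A12 and B14, where Alox5 and Alox5ap were lowest, 8 of the 10 mast cell markers were below the other 4 tumors and the sums were nearly all Kit, at 41.6 and 51.9 FPKM. The part of these cells in the level of Alox5 and Alox5ap was not tested.

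**Figure D3:**
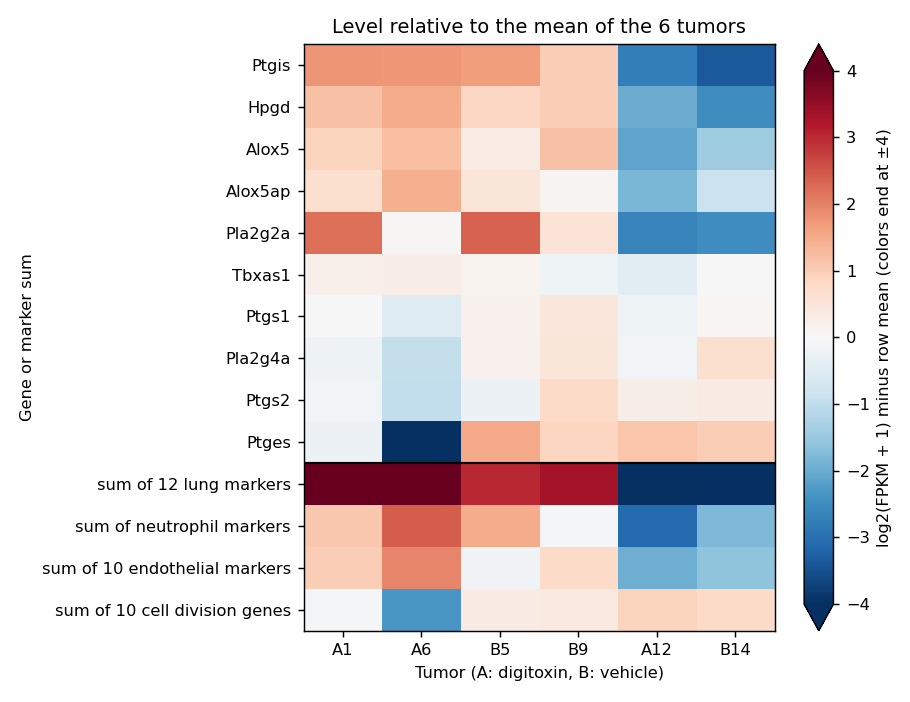
Color map of the 10 members and of the summed lung epithelial, neutrophil, endothelial and cell division markers (rows) in the 6 tumors (columns), as log2(FPKM + 1) minus the mean of the row, red above and blue below it, with colors ending at 4 either way. Pla2g2a, Ptgis, Alox5, Alox5ap and Hpgd and the lung, neutrophil and endothelial sums are lowest in A12 and B14, while Ptges, Ptgs1, Pla2g4a, Ptgs2 and the cell division sum are lowest in A6.

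Across the 6 tumors the members fell into an order by mean FPKM, a scale that corrects for transcript length. The order ran Alox5ap, Pla2g2a, Ptges, Ptgs1, Tbxas1, Ptgis, Alox5, Hpgd, Pla2g4a and Ptgs2. Tbxas1 was above Ptgis and Pla2g4a above Ptgs2 in 6 of 6 tumors, and Ptgs1 above Tbxas1 in 5. The other neighbours kept their order in 3 or 4 of the 6 tumors and so do not differ beyond their spread.

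In both groups the numbered-3 tumor was lower for 5 of the 10 members, Pla2g2a, Ptgis, Alox5, Alox5ap and Hpgd, than all 4 remaining tumors. Of all rows, 29.3% were below the other 4 tumors in both and 30.1% above, and 0 members were above. The members that were not lower were both cyclooxygenases, Pla2g4a, Ptges and Tbxas1. Likeness of profile was measured as the root mean square difference between the log2(FPKM + 1) profiles, each centred on its own mean, over 6 tumors. Within the members the closest pairs were Pla2g4a and Ptgs2 (0.289), Pla2g4a and Ptgs1 (0.305) and Ptgs1 and Ptgs2 (0.349). Alox5 lay at 0.517 from Hpgd and 0.527 from Alox5ap, and Ptgis at 0.643 from Hpgd. Genes that vary little have small differences from many others, so these values compare only with those of genes of a like range.

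Among 10739 other genes, the profile nearest to that of Ptgs1 was Pla2g5 (0.0477), another secreted phospholipase A2 gene of the pathway lists. Nearest to Alox5 was Txnip (0.0971), to Alox5ap Arhgdib (0.152), to Tbxas1 Ifi30 (0.0538) and to Ptges Enc1 (0.349). Enc1 had 3.43 FPKM in A6 against 62.1 to 162 FPKM in the other tumors, the same low tumor as Ptges. Ptgis was nearest to Nkain4 (0.260), Hpgd to Plekhd1 (0.183) and Pla2g2a to Iapp (0.477), all of which were at or near 0 in A12 and B14. Pla2g4a was nearest to Kcnip4 (0.0728) and Ptgs2 to Adar (0.0218).

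Ratios within a tumor, as log2((a + 1)/(b + 1)) of FPKM, compared enzymes at 4 branch points. The ratio of Ptges to Hpgd, synthesis against breakdown of prostaglandin E2, was 0.43, -3.93 and 4.92 in A1, A6 and A12. In control tumors B5, B9 and B14 it was 2.51, 1.69 and 5.29. The difference of the means was -2.69 (exact permutation test, two-sided, p = 0.4, n = 3 per group), where 3 against 3 cannot go below p = 0.1. A1 and A6 were below all controls, and A12 was not, although for 3 of 3 numbers the treated tumor was below the same-numbered control. The ratio of Ptgis to Tbxas1 differed by 0.44 (exact p = 0.6), that of Alox5 to Alox5ap by -0.19 (exact p = 0.8) and that of Ptgs2 to Ptgs1 by -0.0990 (exact p = 0.9). Adjusted over the 4 ratios, each p was 0.9. Ptgis was within 0.41 of Tbxas1 on the log2 scale in A1, A6, B5 and B9. The ratio of Ptgis to Tbxas1 was -3.95 in A12 and -4.97 in B14. For 3 of 3 numbers it was higher in the treated tumor than in the same-numbered control. The ratio tests did not use the numbers, and no label pairs the rats.

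**Figure D4:**
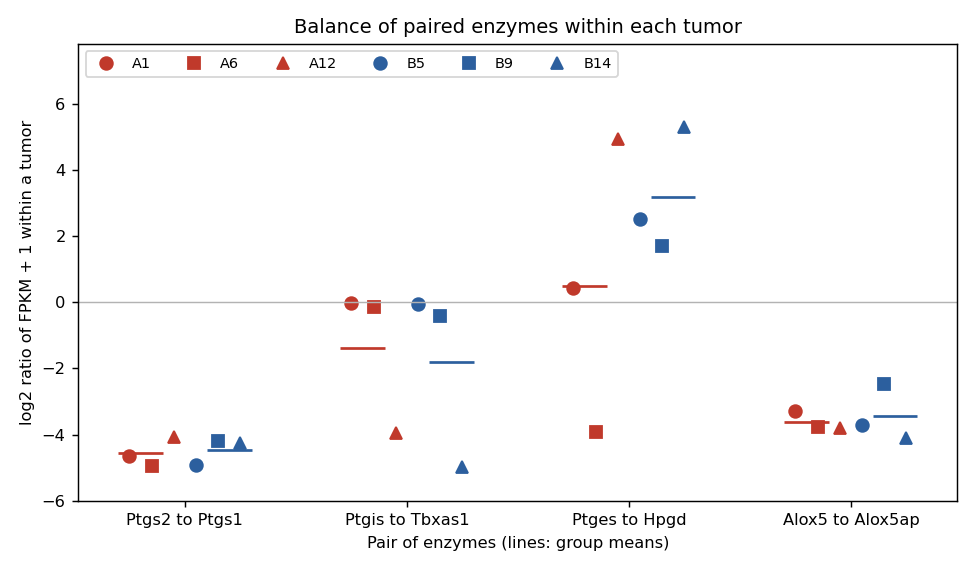
The 4 within-tumor log2 ratios in each of the 6 tumors, in red for digitoxin and blue for vehicle, with lines at the group means. The groups overlap for all 4 ratios, and A12 and B14 are highest for Ptges to Hpgd and lowest for Ptgis to Tbxas1.

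The other genes of the pathway were taken as 26 enzymes, 3 transporters and 14 receptors, of which 13 receptors were found, as Fpr2 was not analysed here. Above the minimum mean of 1 FPKM were 26 enzymes, 3 transporters and 6 receptors, 35 genes in all. None of the 35 passed the adjusted threshold and none had an unadjusted p under 0.05 with all 6 tumors. Of the enzymes 10 were lower and 16 higher, with a median log2 fold change of 0.0963. Of the transporters 2 were lower and 1 higher (median -0.46), and of the receptors 4 were lower and 2 higher (median -0.23). The median over all rows was -0.16. With median-of-ratios scaling 8 enzymes were lower and 18 higher (median 0.28). The medians were then -0.34 for the transporters, -0.0833 for the receptors and 0.02 over all rows.

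Groups did not overlap for 4 of the 35 genes, 3 lower and 1 higher, against 3.26% and 0.902% of all rows. Ptger4, a receptor of prostaglandin E2, had 3.16, 1.28 and 3.58 FPKM with digitoxin (A1, A6, A12) and 4.24, 5.35 and 5.35 FPKM with vehicle (B5, B9, B14). Its log2 fold change was -0.76 (SE 0.38, adjusted p = 0.926) and was -0.45 without A6, and its groups stayed apart with median-of-ratios scaling. The secreted phospholipase Pla2g5 had 1.32, 0.656 and 1.14 FPKM against 1.81, 2.20 and 1.38 FPKM in the same order, with a log2 fold change of -0.46 (SE 0.33). Ptgr2, a reductase of prostaglandin metabolites, had 11.1, 7.72 and 13.9 FPKM against 15.1, 15.0 and 15.0 FPKM, with a log2 fold change of -0.46 (SE 0.29) that was -0.26 without A6. Like Ptgs1, both overlapped under the other scaling. Ptges2, a membrane-associated prostaglandin E synthase, was higher, with 21.0, 21.8 and 22.1 FPKM against 20.8, 19.3 and 15.8 FPKM and a log2 fold change of 0.21 (SE 0.23), which was 0.11 without B14. Cysltr1, a receptor of the cysteinyl leukotrienes, was under the minimum mean and not tested, with 0.239 FPKM in A1, 0.196 FPKM in A6 and a listing at 0 in A12 against 0.491, 1.61 and 1.97 FPKM in B5, B9 and B14.

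The highest means among the enzymes were those of Mgst2, a glutathione transferase that can make leukotriene C4, with 343, 346 and 488 FPKM in A1, A6 and A12 and 597, 455 and 471 FPKM in B5, B9 and B14. Pla2g16, a phospholipase of adipose tissue, followed with 339, 552 and 136 FPKM against 283, 251 and 122 FPKM. Lta4h, the enzyme that forms leukotriene B4, had 167, 199 and 88.3 FPKM against 128, 160 and 87.8 FPKM. The log2 fold changes of Mgst2, Pla2g16 and Lta4h were -0.38 (SE 0.25), 0.52 (SE 0.59) and 0.23 (SE 0.38). With single tumors left out, Pla2g16 lay between 0.0662 (without A6) and 1.07 (without A12) and Lta4h between -0.00246 (without A6) and 0.58 (without A12). Pla2g16 and Lta4h were among the 15 of 26 enzymes that were lower in both tumors numbered 3 than in the other 4, against 29.3% of all rows, and 2 enzymes, Pla2g12a and Ptgr1, were above them in both, against 30.1%.

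The prostaglandin transporter Slco2a1 had 121, 73.5 and 54.1 FPKM in A1, A6 and A12 and 42.7, 130 and 45.9 FPKM in B5, B9 and B14 (log2 fold change 0.30, SE 0.52). Abcc1, an exporter of leukotriene C4, had 2.59, 0.0596 and 9.38 FPKM against 3.97, 7.91 and 14.3 FPKM (-1.37, SE 0.89). Abcc4, an exporter of prostaglandins, had 2.57, 0.851 and 0.427 FPKM against 1.05, 4.05 and 1.39 FPKM (-0.46, SE 0.53). A6 held the lowest level of Abcc1, as it did for Ptges and Pla2g4a. The change of Abcc1 was -0.52 without A6 and -2.17 without A12, that of Slco2a1 -0.00822 without A1 and 0.81 without B9, and that of Abcc4 -0.84 without A1 and -0.0660 without B9. Of the receptors, Ptger1, another receptor of prostaglandin E2, had 18.1, 7.25 and 7.63 FPKM against 6.02, 16.9 and 7.10 FPKM (0.14, SE 0.52). Ltb4r, a receptor of leukotriene B4, had 4.23, 2.33 and 4.81 FPKM against 3.88, 3.995 and 4.997 FPKM (-0.18, SE 0.35). Ptger1 was -0.25 without A1 and 0.55 without B9, and Ltb4r -0.34 without A12 and 0.0655 without A6.

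**Figure D5:**
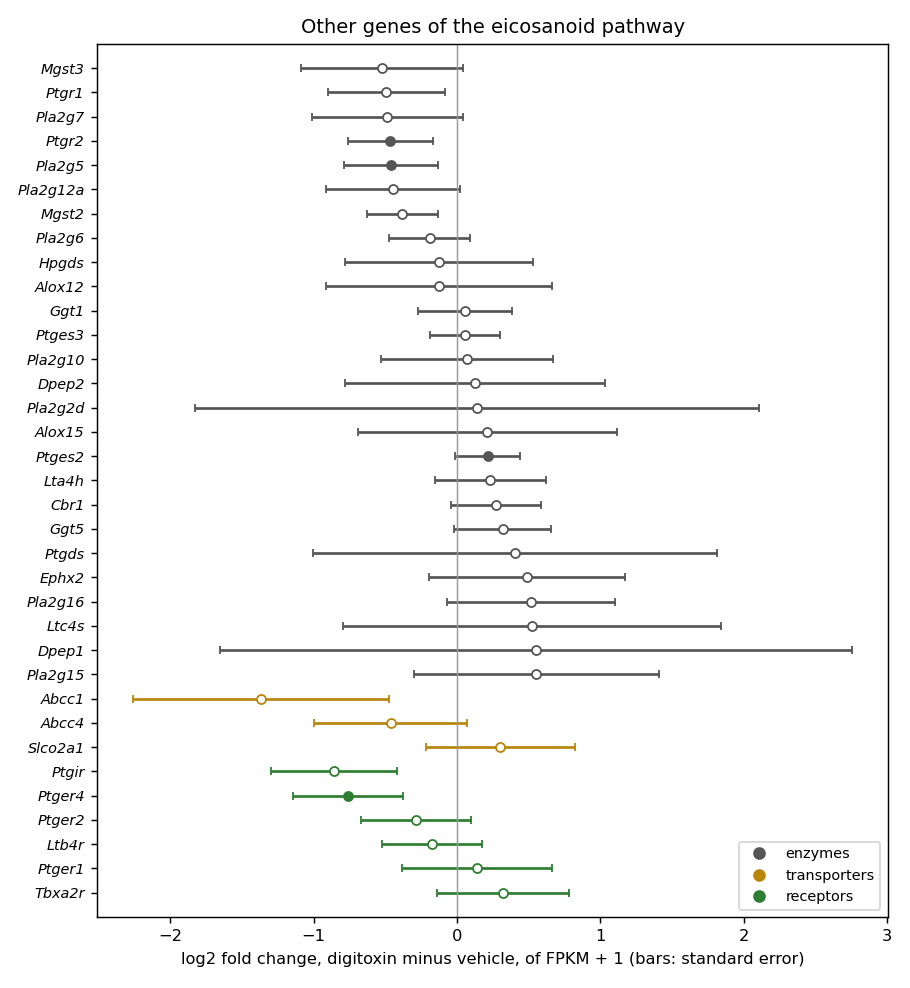
Log2 fold changes of the 35 tested pathway genes by list, digitoxin relative to vehicle, with bars of 1 standard error. Filled points mark the 4 genes whose groups do not overlap and open points those that do; the 15 enzymes low in both A12 and B14 include several with wide bars, such as Dpep1 (SE 2.20).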

How the data were processed

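Messenger RNA of 6 rat tumors was measured by RNA-seq (TruSeq libraries, single reads). Per the labels and the paper, the authors aligned reads with Bowtie 2 and TopHat 2 and estimated FPKM with Cufflinks 2 and Cuffdiff. The deposited table holds FPKM per gene and tumor. The submitters' notes name the build hg19, which is human, so its coordinates are given without a build.

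Rows averaging 1 FPKM or more over 6 tumors were fitted with limma 3.58.1 (R 4.3.3; trend) on log2(FPKM + 1), 3 against 3, two-sided, with Benjamini-Hochberg adjustment over all rows. Ratios used exact permutation tests (scipy 1.17.1). Scripts were tested on simulated data with a spread that was set, not taken from these tumors. That test does not show which changes could be found at the spread seen here. Low FPKM did not fall on steps that give depth, so precision is unknown. Deviations from the group mean correlated between same-numbered tumors (r = 0.426, 0.606 and 0.869 for numbers 1, 2 and 3). Within a group these deviations sum to 0, so the r values are not independent, and differently numbered tumors were not compared this way. Across tested rows, A1 had r = 0.963 with B9 and 0.960 with B5, and A6 had 0.859 with B5 and 0.856 with B9. No label pairs the rats. The replicate block was run as an alternative. Other alternatives were pseudocount, filter, median-of-ratios scaling and left-out tumors. The 10 members, the pathway genes and 9 lists of markers were chosen with earlier results of these data known. Named genes were all members, pathway genes whose groups do not overlap or with an unadjusted p under 0.05, the 3 highest means of each list, and each member's nearest profile. P-values measure the spread between these 6 tumors.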

Additional observations from a re-analysis of the deposited data

How the results depend on the processing

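No member and no pathway gene passed the adjusted threshold under any of the 12 alternatives that give a test, and the adjusted p of the members ran from 0.252 to 1. The number of rows that passed was 0, but 2 without both tumors numbered 3 and 0 to 2 with each tumor left out (2 without B14). Members with a lower mean numbered 6, and 4 to 10 with a tumor left out (10 without A1 or without A6), with medians from -0.73 to 0.61. Of the pathway genes 16 were lower, and 15 to 27 with a tumor left out. With median-of-ratios scaling, several named pathway genes moved by over 1.5 times with no change of sign. They went to -0.0281 for Ltb4r, -0.19 for Mgst2, -0.28 for Ptgr2 and 0.43 for Lta4h. Ptges2 went to 0.40, Slco2a1 to 0.50 and Ptger1 to 0.32. Of 130 alternative values for single members, 20 had the opposite sign. Alox5 turned from -0.03 to 0.16 with median-of-ratios scaling, 0.29 without both tumors numbered 3 and 0.18 as a ratio of group means. Other moves of over 1.5 times, with no change of sign, included those to 0.35 for Alox5ap, -0.0916 for Pla2g2a, -0.27 for Ptgs1 and 0.21 for Tbxas1 with median-of-ratios scaling, and to 0.57 for Alox5ap, -1.14 for Ptges, -1.04 for Ptgs2 and 0.0486 for Tbxas1 as a ratio of group means. With a tumor left out, log2 fold changes ran from -0.76 to 1.02 for Alox5, -0.52 to 1.12 for Alox5ap, -0.70 to 1.54 for Hpgd, -1.61 to 0.98 for Pla2g2a, -1.10 to 1.97 for Ptgis and -0.11 to 0.24 for Tbxas1. Pla2g4a, Ptges, Ptgs1 and Ptgs2 stayed lower under all 12 and as a ratio of group means. With a tumor left out, the ratios ran from -0.53 to 0.29 for Alox5 to Alox5ap, -4.91 to -0.48 for Ptges to Hpgd, -1.14 to 1.73 for Ptgis to Tbxas1 and -0.34 to 0.0985 for Ptgs2 to Ptgs1. With a pseudocount of 0.1 some values moved by over 1.5 times, to -1.48 for Ptgs2, 0.81 for Ptgis and -0.11 for Alox5, and to -1.01 for the ratio of Ptgs2 to Ptgs1. Ptgs2 was listed at 0 in A6, and Ptgis stood at 0.768 FPKM in A12 and 0.188 FPKM in B14. At such low levels a smaller added value widens log2 differences. The cause of the other moves was not tested.

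Counts of genes whose groups do not overlap were repeated after the data were seen. Members went from 2 to 1 with median-of-ratios scaling and to 7 without both tumors numbered 3, and pathway genes from 4 to 16 of 35 without them, where 40.0% of all rows were lower and 17.2% higher without overlap. With the replicate number as a block, 0 rows passed and 446 instead of 36 had an unadjusted p under 0.05. The block changed no adjusted call of a member, and Ptges had an unadjusted p of 0.0416. Depth is unknown, which limits the lowest genes, such as Ptgs2 and Pla2g4a.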
